A study of Arabidopsis thaliana with 6 samples.

Results

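The genes described here are the Aux/IAA, SAUR, GH3 and related loci that the array annotation marks as auxin-responsive. A locus was taken when its symbols held IAA followed by a number, or when its annotation held the phrase auxin-responsive. The first route gave 33 loci and the phrase alone gave 93 more, which makes 126 of the 32627 loci measured. By the gene names of RefSeq they comprise 29 Aux/IAA genes, 73 SAUR genes, 9 members of the GH3 family, 3 ARF genes and 12 other loci. The ARF genes ARF5, ARF7 and ARF19 entered through older IAA aliases. One of the 12 other loci is the MYB factor MYB75, which entered through the alias SIAA1 and differed by -0.01.

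Auxin acts by bringing the F-box receptors TIR1 and AFB together with Aux/IAA proteins, which are then degraded. Aux/IAA proteins repress ARF transcription factors with the help of TOPLESS corepressors, and ARFs in turn drive early auxin genes, among them Aux/IAA, SAUR and GH3 genes themselves. Many SAUR proteins inhibit phosphatases that hold back plasma membrane proton pumps, and so promote cell elongation, while several GH3 enzymes join auxin to amino acids and lower its free level. In roots the pathway governs the meristem, elongation, root hairs and lateral root formation.

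Root RNA came from Arabidopsis thaliana lines carrying pER8::OBP4 or, as the control, pER8::GFP, with 3 one-colour NimbleGen arrays for each line. OBP4 is a DOF transcription factor, and pER8 is a vector that switches its insert on in response to estradiol. Seedlings of both lines were 5 days old when they were placed on 10 µM estradiol for 8 h, and the labels describe the replicates of a line as separate plates. Estradiol and the pER8 system were thus shared by both groups, uninduced roots were not analysed here, and the labels do not say whether a line was 1 transformant. The comparison asks which auxin-responsive transcripts differ in level once OBP4 is induced in roots.

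Values are the deposited RMA values on the log2 scale, and each difference is OBP4 minus control ± its standard error in limma. OBP4 itself read 15.74, 15.83 and 15.86 in OBP4 roots, against 14.37, 14.78 and 14.48 in control roots. It was thus higher in every OBP4 array, by 1.27 ± 0.12 (limma adjusted p = 0.00279). Its values in OBP4 roots lie near the 16-bit scanner ceiling, so the rise may be understated. The 15 root markers stayed at 9.33 or more in every array. They averaged 13.39 to 13.52 in OBP4 roots and 13.67 to 13.80 in control roots. Of these markers 5 were lower in OBP4 roots (33.3%) and 0 higher, beside 8.48% and 5.23% of all loci. At a mean of 8 or more, the level of all these markers, the shares of array loci were 11.2% and 6.69%. The 5 were WER, GL2, COBL9 and EXPA7 of the epidermis and root hairs, and BRN1 of the root cap. In the 6 fits without 1 array BRN1 kept its call in 6, COBL9 and EXPA7 in 4 each, GL2 in 2 and WER in 1. SMB, another root cap marker, missed the threshold (-0.18, limma adjusted p = 0.394). What the 5 lower markers share with the decreases given below was not tested. The 20 shoot markers, genes of light harvesting and carbon fixation, averaged 13.96, 10.48 and 12.60 in OBP4 replicates 1, 2 and 3 and 11.29, 11.13 and 12.25 in control replicates 1, 2 and 3. OBP4 replicate 1 was therefore the array with the highest shoot marker level. SAUR genes that stand out in it are given with and without it.

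At a limma adjusted p under 0.05, OBP4 roots had higher levels of 12 of the 126 auxin-responsive loci (9.52%) and lower levels of 22 (17.5%). Over the whole array 5.23% rose and 8.48% fell, which is 13.7% in either direction against 27.0% of the auxin-responsive loci. The median difference of the 126 was -0.01, beside 0.02 over all loci, so the list as a whole was not displaced to one side. Their differences ran from -1.59 to 2.98. Dim genes passed seldom. At a mean of 8 or above, 12 of 84 auxin-responsive loci rose and 19 fell (36.9% in all), beside 17.9% of the 22858 array loci at that level. Groups did not overlap at 58 of the 126 loci (46.0%), 24 with OBP4 roots above and 34 with OBP4 roots below, beside 36.9% of all loci. Of the increases 5 reached 1 on the log2 scale, and of the decreases 8 did, beside 1.72% and 3.06% of all loci (4.78% in either direction). In bulk root RNA, fewer cells of a type and less RNA per cell cannot be told apart.

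The counts were lower whichever array was left out, at 7 to 11 increases and 10 to 17 decreases, and 0 of the calls changed sign. A fit without 1 array also has less power, and the share of all loci in these fits is not given here. The lower counts therefore cannot be assigned to particular arrays. Without OBP4 replicate 2 the increases numbered 7. The decreases numbered 10 without control replicate 1, 11 without control replicate 3, and 14 without either control replicate 2 or OBP4 replicate 1. Of the 34 genes that passed, 16 kept their call in all 6 fits that leave out 1 array. These were SAUR76, SAUR70, IAA5, IAA18, ARF5, AT5G13370 and AT5G35735 among the increases and SAUR40, SAUR5, SAUR58, SAUR4, SAUR8, SAUR72, IAA14, AT1G48670 and AT3G61750 among the decreases.

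**Figure D1:**
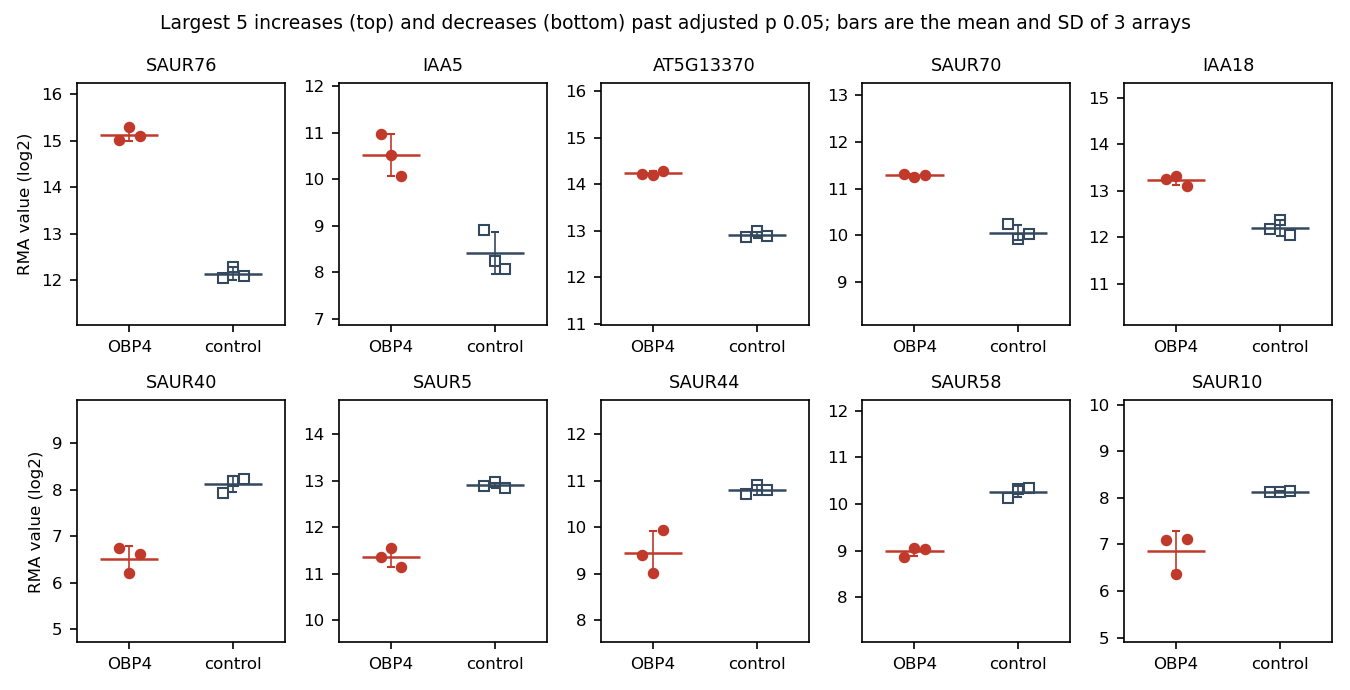
RMA value (log2, vertical axis) of the 5 auxin-responsive genes with the largest increases (top) and the 5 with the largest decreases (bottom) among those past a limma adjusted p of 0.05, with 1 point per array, OBP4 left and control right, and bars for the mean and SD of 3 arrays. SAUR76 lies at 15.01 to 15.28 in OBP4 roots and 12.04 to 12.29 in control roots, and no panel shows an overlap between the lines.

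None of the hormone receptor genes, TIR1 and AFB1 to AFB5, passed, and their differences ran from -0.16 (AFB2) to 0.02 (AFB4). TIR1 averaged 15.57 in both OBP4 and control roots. AFB2 read 15.09 to 15.17 in OBP4 roots and 15.24 to 15.32 in control roots, without overlap, but missed the threshold (limma adjusted p = 0.167). Means of the 6 receptor genes ran from 13.78 to 15.57. The 5 TOPLESS corepressor genes also gave 0 calls, with differences between -0.14 and 0.07 and means from 10.96 to 15.62. Over all loci 13.7% passed in either direction, and lists of 6 and 5 genes are too short for 0 calls to show a lower share. The brightest genes of both lists lie near the scanner ceiling, where a difference may be understated. The 0 calls thus do not show that the receptor and corepressor genes were unchanged.

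ARF5 and ARF19 were higher in OBP4 roots. ARF5, also known as MONOPTEROS and needed for embryonic root and vascular formation, read 14.67, 14.83 and 14.67 in OBP4 roots and 14.02, 14.15 and 14.21 in control roots. The lines did not overlap, and the difference was 0.60 ± 0.09 (limma adjusted p = 0.0105). ARF19, which together with ARF7 drives lateral root formation, read 14.68, 14.86 and 14.84 in OBP4 roots and 14.39, 14.31 and 14.17 in control roots. It rose by 0.51 ± 0.09 (limma adjusted p = 0.0217), and this call was kept in 2 of the 6 fits without 1 array. ARF7 read 15.46 to 15.54 in OBP4 roots and 15.37 to 15.45 in control roots and missed the threshold (limma adjusted p = 0.379). Across the 23 ARF genes 4 were higher (17.4%) and 0 lower, beside 5.23% and 8.48% of all loci, with a median difference of 0.00. In either direction the 17.4% is close to the 13.7% of all loci. Beside ARF5 and ARF19 these were ARF11, 2.14-fold (limma adjusted p = 0.0105), and ARF4, by 0.70 ± 0.07 (limma adjusted p = 0.00336).

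Aux/IAA genes moved in both directions and most did not pass. Of 29, 3 were higher (IAA5, IAA18, IAA26), 3 were lower (IAA14, IAA31, IAA12) and 23 missed the threshold, with a median difference of 0.01. All 29 had a mean of 8 or more. The 20.7% that passed stands beside 17.9% of all loci at that level.

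IAA5, an early auxin-induced gene, read 10.97, 10.53 and 10.08 in OBP4 roots, against 8.92, 8.24 and 8.07 in control roots. It rose by 2.11 ± 0.32, which is 4.33-fold, with every OBP4 array above every control array (limma adjusted p = 0.0120). The locus, AT1G15580, lies on the reverse strand of chromosome 1 from 5365665 to 5366497 by the coordinates of the array, for which no source here states the build. Its SD was 0.44 in OBP4 roots and 0.45 in control roots, wider than that of IAA18 (0.11 in OBP4 roots and 0.17 in control roots).

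IAA18, in which stabilising mutations impair lateral root initiation, read 13.26, 13.32 and 13.11 in OBP4 roots and 12.17, 12.38 and 12.04 in control roots. The rise was 1.03 ± 0.11 (limma adjusted p = 0.00426), with the lines well apart. IAA26 read 12.54, 12.47 and 12.75 in OBP4 roots and 12.04, 12.16 and 12.22 in control roots. Its rise of 0.44 ± 0.10 passed narrowly (limma adjusted p = 0.0452) and was kept in none of the 6 fits without 1 array.

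IAA14 (SOLITARY-ROOT), the repressor whose stabilised form blocks lateral roots, read 12.63, 12.33 and 12.62 in OBP4 roots and 13.44, 13.62 and 13.47 in control roots. It fell by 0.98 on the log2 scale, with a standard error of 0.11 (limma adjusted p = 0.00457), and the call was kept in all 6 fits without 1 array. IAA1 lies next to IAA14 on chromosome 4, and its arrays overlapped, at 12.45 to 12.64 in OBP4 roots and 12.27 to 12.83 in control roots (difference 0.08).

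IAA31, whose degron departs from the usual form of the family, read 12.08, 11.96 and 11.88 in OBP4 roots and 12.79, 12.62 and 12.42 in control roots. The difference was -0.64 ± 0.12 (limma adjusted p = 0.0241), kept in 2 of 6 fits without 1 array. IAA12 (BODENLOS), the partner of ARF5 in the embryo, read 11.08, 10.93 and 11.14 in OBP4 roots and 11.48, 11.41 and 11.47 in control roots. The difference of -0.41 ± 0.08 (limma adjusted p = 0.0269) is a mean over 2 gene models of that locus. The models differed by -0.63 and -0.18, only the first of which passed, so the locus call rests on 1 model, and it was kept in 1 of 6 fits without 1 array.

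**Figure D2:**
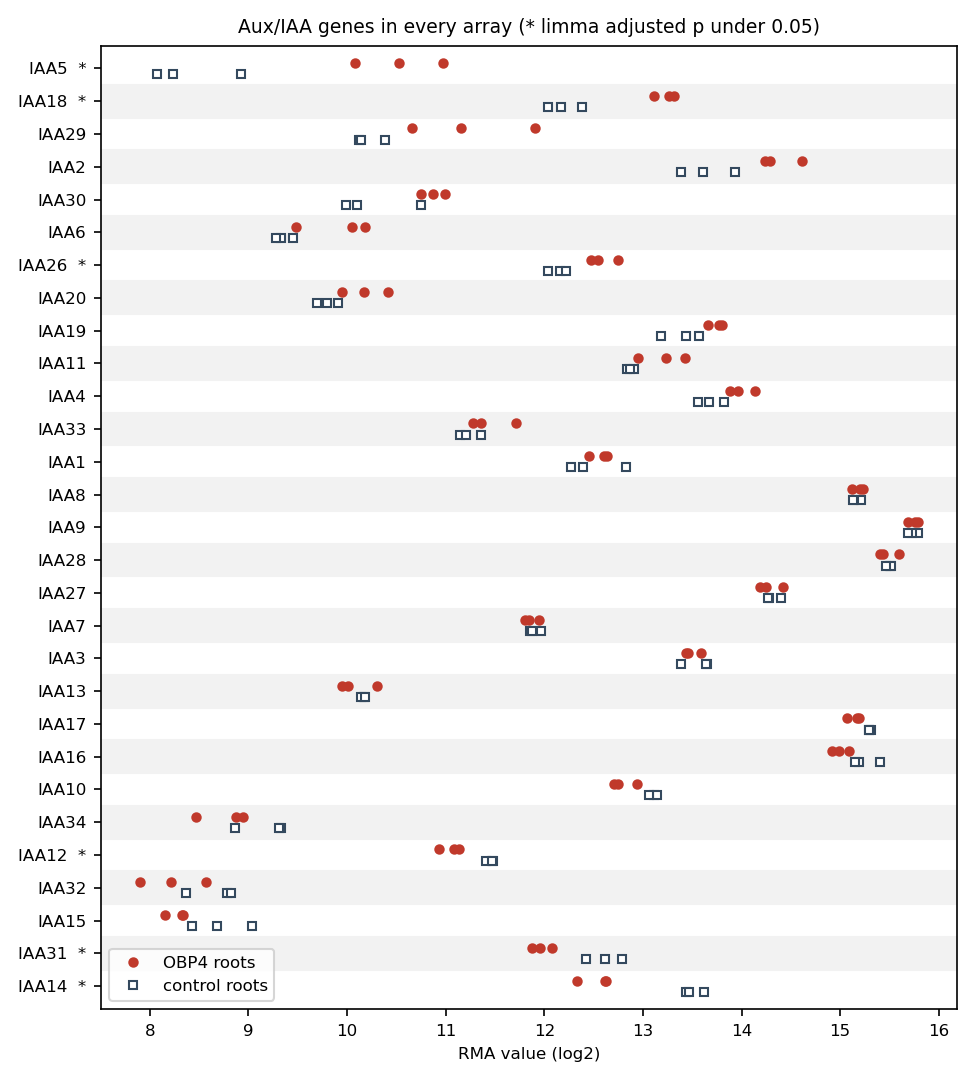
RMA value (log2, horizontal axis) of each Aux/IAA gene in every array, OBP4 as filled circles above control as open squares; an asterisk marks a limma adjusted p under 0.05. Of the 29 genes 3 pass upward and 3 downward, and IAA5 shows the largest shift, 2.11, with 10.08 to 10.97 in OBP4 roots and 8.07 to 8.92 in control roots.

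Of the 23 Aux/IAA genes that missed the threshold, 12 were separate between the lines, 8 with OBP4 roots above and 4 with OBP4 roots below. Counting those that passed too, 62.1% of the 29 were separate, beside 44.4% of all loci with a mean of 8 or more. IAA2 read 14.24, 14.29 and 14.61 in OBP4 roots and 13.61, 13.93 and 13.39 in control roots, a difference of 0.74 ± 0.18 (limma adjusted p = 0.0503). IAA29 read 11.91, 10.66 and 11.16 in OBP4 roots and 10.38, 10.12 and 10.14 in control roots, a difference of 1.03 ± 0.32 (limma adjusted p = 0.105). It was highest in OBP4 replicate 1, and with the shoot marker mean as a covariate IAA29 differed by 0.79 (limma adjusted p = 0.073). IAA2 and IAA29 were picked out after their values were seen. IAA17, given below, is among the 4 that were lower. Across all 23, differences ran from -0.45 to 1.03, and 8 lay within 0.1 of zero.

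The remaining repressors with known root roles missed the threshold. IAA3 (SHY2), a regulator of meristem size, averaged 13.50 in OBP4 roots and 13.56 in control roots, and IAA7 (AXR2) averaged 11.86 and 11.90 in OBP4 and control roots. IAA28, a repressor in lateral root founder cells, read 15.40 to 15.60 in OBP4 roots and 15.46 to 15.52 in control roots. IAA17 (AXR3) read 15.07 to 15.19 in OBP4 roots and 15.29 to 15.31 in control roots. Its groups did not overlap, but the difference of -0.16 missed the threshold (limma adjusted p = 0.178). IAA19 (MSG2) differed by 0.34 (limma adjusted p = 0.130). The Aux/IAA locus with the highest mean, IAA9, differed by 0.01, and that with the lowest, IAA32, by -0.43 (limma adjusted p = 0.258). Each is a mean over 2 gene models. IAA9 averaged 15.75 in OBP4 roots and 15.74 in control roots, near the scanner ceiling, where a difference may be understated.

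SAUR genes gave more decreases than increases. Of 73, 5 were higher (6.85%), 15 were lower (20.5%) and 53 missed the threshold, with a median difference of -0.01. The whole array also held more decreases than increases, 8.48% against 5.23% of all loci. Many are dim. All 5 increases and 12 of the decreases came from the 37 SAUR genes with a mean of 8 or more, and the other 36 gave 3 decreases. Over all loci 17.9% passed at a mean of 8 or more and 3.87% under it. The decreases numbered 6 without control replicate 1 and 7 without control replicate 3. The increases numbered 2 without control replicate 2 or OBP4 replicate 2, and 3 without control replicate 3 or OBP4 replicate 3.

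**Figure D3:**
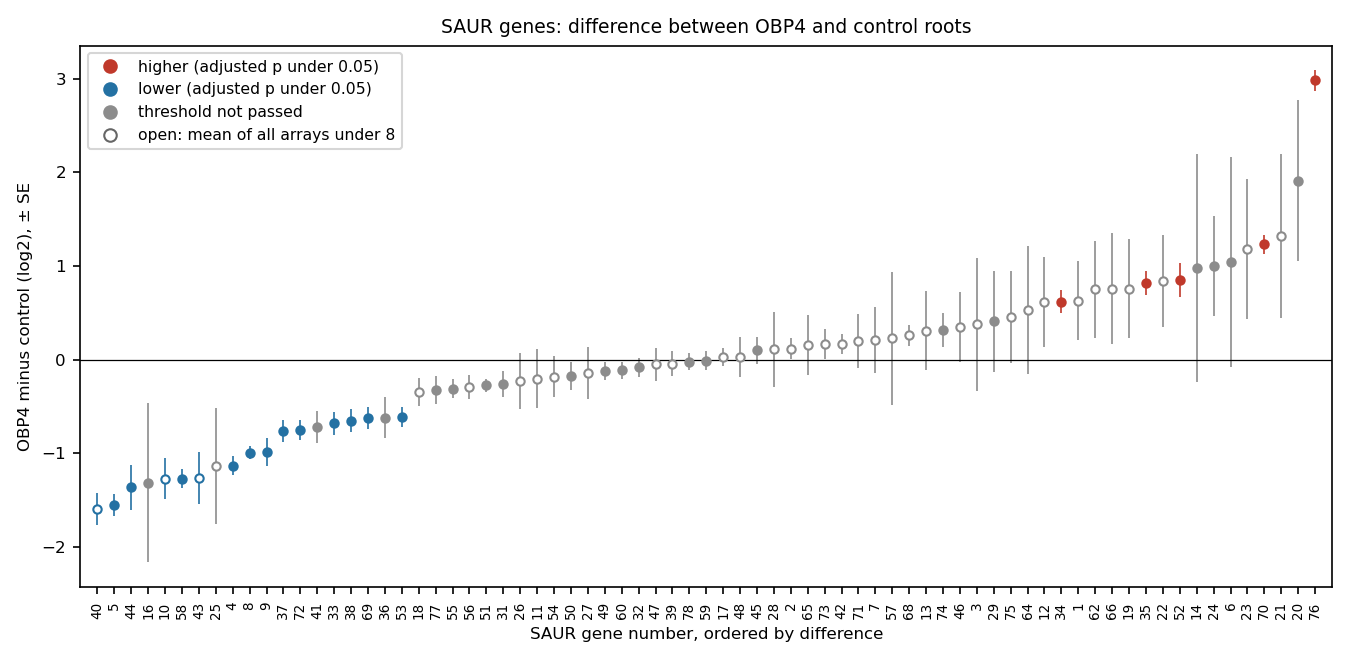
Difference OBP4 minus control (log2, vertical axis, with the SE of the limma fit) for the 73 SAUR genes in order of size; colours mark genes past a limma adjusted p of 0.05 and open points a mean of all arrays under 8. SAUR76 at 2.98 stands above every other gene, and SAUR40 and SAUR5, at -1.59 and -1.55, lie below every other. Genes that missed the threshold run from -1.31 (SAUR16) to 1.91 (SAUR20).

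SAUR76 showed the largest difference of all 126 loci. It read 15.01, 15.28 and 15.09 in OBP4 roots and 12.04, 12.29 and 12.10 in control roots. The rise was 2.98 ± 0.11, or 7.91-fold (limma adjusted p = 0.000387), and its OBP4 values approach the scanner ceiling. SAUR76 (AT5G20820) occupies 7046751 to 7047396 of chromosome 5 on the reverse strand.

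SAUR70 (AT5G20810), its neighbour at 7043898 to 7045711 on the forward strand, was also higher. It read 11.31, 11.24 and 11.30 in OBP4 roots and 10.23, 9.91 and 10.02 in control roots. The rise was 1.23 ± 0.10 (limma adjusted p = 0.00168), and each of its 2 gene models rose, by 1.04 and 1.43. Of the loci flanking the pair, looked up after those values were seen, none passed upward. SUS1, a sucrose synthase gene beyond SAUR76, differed by 0.20 (limma adjusted p = 0.143), AT5G20800 differed by 0.42 (limma adjusted p = 0.320), and AT5G20790 was lower, at -1.62 (limma adjusted p = 0.000586).

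The other 3 SAUR increases were smaller and less stable. SAUR52 read 12.54, 13.01 and 13.06 in OBP4 roots and 12.24, 11.84 and 11.99 in control roots, a rise of 0.85 ± 0.18 (limma adjusted p = 0.0365). SAUR35 rose by 0.82 ± 0.13 (limma adjusted p = 0.0156), but in a second deposited table, of unstated normalization, it passed in the opposite direction, at -0.95 (limma adjusted p = 0.0126). SAUR34 rose by 0.62 ± 0.12 (limma adjusted p = 0.0278). In the fits without 1 array, SAUR35 kept its call in 3 of 6 and the others in 1 of 6 each.

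SAUR40 had the lowest difference of all 126 loci. It read 6.74, 6.21 and 6.62 in OBP4 roots and 7.93, 8.19 and 8.24 in control roots, a difference of -1.59 ± 0.17 (limma adjusted p = 0.00386). Its OBP4 values lie in the dim range, while SAUR5 was bright. SAUR5 read 11.35, 11.55 and 11.15 in OBP4 roots and 12.89, 12.96 and 12.85 in control roots, a difference of -1.55 ± 0.12 (limma adjusted p = 0.00138). SAUR4, next to it on chromosome 4, read 11.27, 11.47 and 11.31 in OBP4 roots and 12.45, 12.63 and 12.37 in control roots, a difference of -1.13 ± 0.10 (limma adjusted p = 0.00219). For SAUR5 and SAUR4 alike, each OBP4 array lay below each control array.

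SAUR58 read 8.87, 9.06 and 9.04 in OBP4 roots and 10.12, 10.33 and 10.34 in control roots, a difference of -1.27 ± 0.10 (limma adjusted p = 0.00140). SAUR8 read 11.48, 11.61 and 11.64 in OBP4 roots and 12.54, 12.61 and 12.55 in control roots, a difference of -0.99 ± 0.07 (limma adjusted p = 0.00126). These had narrow spreads in both lines and passed in all 6 fits without 1 array. SAUR44 (-1.36 ± 0.24), SAUR10 (-1.27 ± 0.22), SAUR43 (-1.26 ± 0.28) and SAUR9 (-0.98 ± 0.15) were of like size but lost their calls in 2 to 5 of those fits. SAUR43 averaged 5.82 in OBP4 roots and 7.08 in control roots, so both lines were dim.

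The other 6 decreases, listed here to complete the count, were SAUR37 (-0.76), SAUR72 (-0.75), SAUR33 (-0.68), SAUR38 (-0.65), SAUR69 (-0.62) and SAUR53 (-0.61). SAUR72 passed in all 6 fits without 1 array and the other 5 in 1 to 3 of them. The SAUR gene with the highest mean, SAUR55, averaged 15.32 in OBP4 roots and 15.63 in control roots without passing (limma adjusted p = 0.119). The one with the lowest mean, SAUR56, averaged 5.18 in OBP4 roots and 5.48 in control roots (limma adjusted p = 0.199).

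Several SAUR genes lie in tandem runs. Whether the probes separate the transcripts of neighbouring copies was not tested, so single values in these runs are uncertain. The run on chromosome 4 from 16577482 to 16599421 holds SAUR49, SAUR50, SAUR1, SAUR2, SAUR3, SAUR4 and SAUR5. Of these 7, SAUR4 and SAUR5 fell and the other 5 missed the threshold. The run SAUR19 to SAUR24, on chromosome 5 from 5962897 to 5984112, had positive differences for all 6 genes, with a median of 1.09, and 0 of them passed. It was singled out after its values were seen.

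The SAUR19 to SAUR24 run was highest in OBP4 replicate 1 and also stood above the control arrays in OBP4 replicate 3. Its mean was 9.19, 6.68 and 7.61 in OBP4 replicates 1, 2 and 3, against 6.66, 6.65 and 6.67 in the control replicates. Without OBP4 replicate 1, the differences of the 6 genes ran from 0.25 to 1.17 and none passed. Across the family, 15 of 73 SAUR genes (20.5%) read at least 1 unit higher in OBP4 replicate 1 than in all 5 other arrays, against 0 of 29 Aux/IAA genes, 12 of 20 shoot markers and 1.98% of all loci. The 15 are SAUR3, SAUR6, SAUR12, SAUR14, SAUR19 to SAUR24, SAUR29, SAUR57, SAUR62, SAUR64 and SAUR66, and none of them passed. Without OBP4 replicate 1 the 9 outside the SAUR19 to SAUR24 run differed by -0.53 to 0.26, and SAUR3, SAUR14, SAUR6, SAUR29, SAUR57 and SAUR64 changed sign. With the shoot marker mean as a covariate in all 6 arrays, each of the 15 differences was smaller. The 15 were picked by their level in OBP4 replicate 1, which also had the highest shoot marker mean. Smaller differences in both fits thus follow in part from that choice, and a link to shoot tissue was not tested. SAUR14 differed by 0.03 in that fit, against 0.98 without the covariate, SAUR6 by 0.13, against 1.04, and SAUR20 by 1.29, against 1.91.

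**Figure D4:**
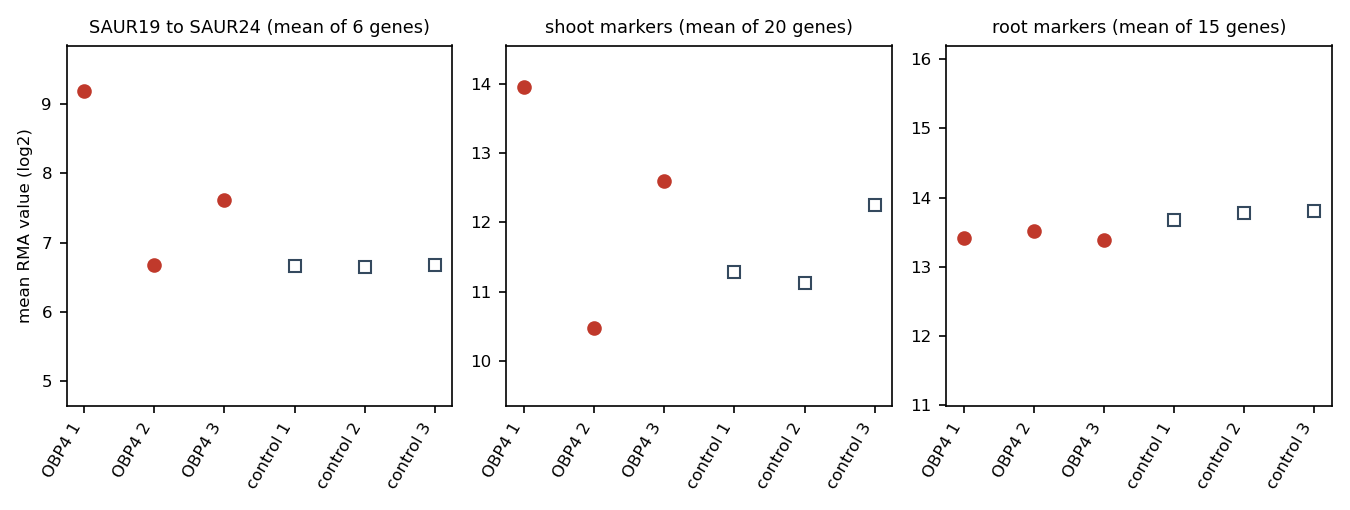
Mean RMA value (log2, vertical axis) per array of the SAUR19 to SAUR24 run (left), the 20 shoot markers (middle) and the 15 root markers (right). OBP4 arrays stand left of control arrays in each panel. OBP4 replicate 1 is the highest array for the SAUR run, at 9.19, and for the shoot markers, at 13.96. In these panels OBP4 replicate 3 lies at 7.61 and 12.60, and control replicate 3 at 6.67 and 12.25.

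With the shoot marker mean as a covariate, 27 of the 34 calls remained. The 7 that missed the threshold kept their direction, and they were IAA26, IAA31, SAUR34, SAUR43, SAUR69, AT5G51470 and AT3G25290. The calls of SAUR76, SAUR70, IAA5, IAA18, IAA14, SAUR5 and SAUR4 were among those that remained. SAUR16 (-1.98, limma adjusted p = 0.045), IAA11 (0.42, limma adjusted p = 0.0486) and IAA20 (0.47, limma adjusted p = 0.0488) passed with the covariate but not without it.

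The GH3, ARF and other loci, grouped here as GH3 and other members, gave 4 increases and 4 decreases among 24 loci. That is 16.7% each, beside 5.23% and 8.48% of all loci. The 24 include the 3 ARF genes given above, and 2 of the 4 increases are ARF5 and ARF19. Of the 9 GH3 loci, none of which had a GH3 number as its symbol in the annotation used here, 1 rose and 2 fell. AT5G13370 read 14.22, 14.20 and 14.28 in OBP4 roots and 12.86, 12.99 and 12.89 in control roots. All 3 OBP4 arrays stood above all 3 control arrays. It rose by 1.32 ± 0.07 (limma adjusted p = 0.000547). It lies in a run of 4 GH3 loci on chromosome 5, in which AT5G13350 differed by 0.87, AT5G13360 by 0.19 and AT5G13380 by -0.03 without passing.

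AT1G48670 read 10.75, 10.85 and 11.05 in OBP4 roots and 12.28, 11.93 and 11.99 in control roots. It fell by 1.18 on the log2 scale (SE 0.13, limma adjusted p = 0.00434). Its tandem neighbours AT1G48660 and AT1G48690 differed by -0.81 and -0.42 and missed the threshold. AT5G51470 differed by -0.79 ± 0.16 (limma adjusted p = 0.0293), a call kept in 1 of the 6 fits without 1 array. A further 9 GH3 genes, which the rule did not take, carry a GH3 number in that annotation. Among them only GH3.2, an enzyme that conjugates auxin, passed, at -0.99 (limma adjusted p = 0.0372). That call was kept in none of those fits.

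The 12 other loci held 1 increase (8.33%) and 2 decreases (16.7%), beside 5.23% and 8.48% of all loci. AT5G35735 read 15.70, 15.77 and 15.80 in OBP4 roots and 15.11, 15.25 and 15.25 in control roots. It rose by 0.55 ± 0.07 (limma adjusted p = 0.00734), near the scanner ceiling. AT3G61750 read 14.29, 14.30 and 14.24 in OBP4 roots and 14.94, 14.75 and 14.84 in control roots, a difference of -0.57 ± 0.07 (limma adjusted p = 0.00740). AT3G25290 differed by -0.39 and passed narrowly (limma adjusted p = 0.0493), in 1 of the 6 fits without 1 array.

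**Figure D5:**
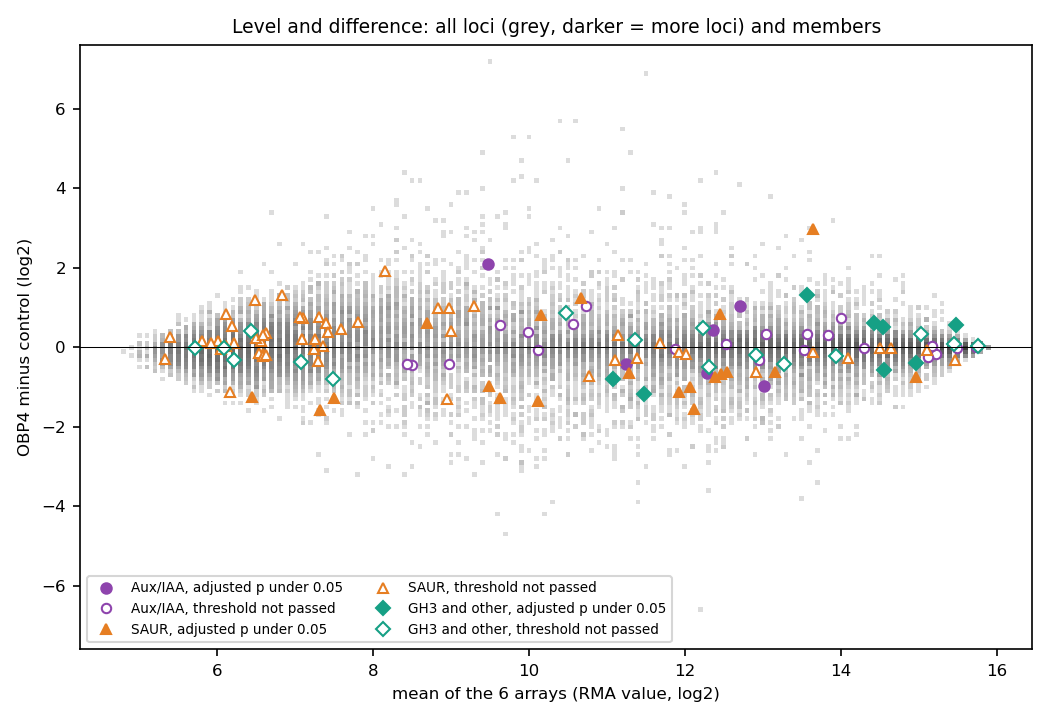
Difference OBP4 minus control (log2, vertical axis) against the mean of the 6 arrays (RMA value, log2, horizontal axis), with all 32627 loci in grey and the auxin-responsive loci by family, filled where the limma adjusted p is under 0.05. SAUR genes spread over the whole range of levels, whereas every Aux/IAA gene lies at a mean of 8 or more.

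The pathway beyond these families is given beside the 5.23% of all loci that were higher and the 8.48% that were lower. Of 14 auxin synthesis genes 1 passed (7.14%), TAR2, a tryptophan aminotransferase of the main route, at -0.66 ± 0.14 (limma adjusted p = 0.0331), kept in 1 of 6 fits without 1 array. Of 12 genes of auxin conjugation and breakdown 3 were lower and 0 higher. These were UGT74E2 (-0.68), which glycosylates an auxin precursor, the auxin oxidase DAO2 (-0.50) and the conjugate hydrolase ILL2 (-0.26). DAO2 kept its call in 1 of the 6 fits without 1 array and the other two in none.

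Other auxin target genes gave 3 increases among 12 and 0 decreases, beside 5.23% and 8.48% of all loci. ARGOS, a promoter of organ growth, rose by 1.46 ± 0.19 (limma adjusted p = 0.00716). LBD17 rose by 0.76 (limma adjusted p = 0.00363), and the root stem cell factor PLT3 rose by 0.37 (limma adjusted p = 0.0321), a call kept in none of the 6 fits without 1 array.

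Among the 11 plasma membrane proton pumps, 1 was higher (9.09%) and 2 were lower (18.2%), beside the same shares of all loci. AHA9 read 10.67, 10.66 and 10.81 in OBP4 roots and 8.14, 7.07 and 8.36 in control roots, a rise of 2.85 ± 0.35 (limma adjusted p = 0.00595). AHA7, with a role in root hairs, fell by 0.95 on the log2 scale (limma adjusted p = 0.00823), and AHA4 fell by 0.38 (limma adjusted p = 0.0147), kept in 3 of the 6 fits without 1 array. The 6 SAUR genes outside the rule gave 0 calls in either direction.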

How the data were processed

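RNA from roots was hybridised to one-colour NimbleGen arrays, 3 for pER8::OBP4 and 3 for pER8::GFP. The authors deposited log2 values per gene model, which the files' own titles name as RMA, with software and settings not given in the sources used here. A second deposited table of log2 values, with its normalization not stated, did not follow the arrays, and OBP4 was not higher in it, so it serves only as an alternative. Values run to just under the 16-bit ceiling.

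Models of a locus were averaged (37118 models, 32627 loci). The lines were compared by limma (version 3.58.1, lmFit and eBayes, under R 4.3.3) without further normalization or filter. Tests were two-sided, p-values were adjusted by Benjamini-Hochberg over every locus, and calls needed an adjusted p under 0.05. Array medians ran from 11.60 to 11.65, and no 2 arrays were identical. Precision is limited by having 3 arrays per line. The limma step was tested on simulated data.

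A family rule based on array text alone placed 33 loci in Aux/IAA, with ARF and MYB75 loci among them, and 5 in SAUR. RefSeq names (TAIR10.1), which cover all 126 loci, were used instead after the annotation was seen, and 68 SAUR genes were named through them. Lists for the pathway, shoot and root held 118 entries, all measured. Members, lists and tests were chosen with earlier results of these data known. Named genes are the 10 largest increases and decreases past the threshold, all such Aux/IAA genes, up to 5 per direction for SAUR and for GH3 and other members, and well-known Aux/IAA, receptor and ARF genes regardless of p. Others named were chosen after their values were seen or complete a small count.

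Alternatives were quantile normalization, median centring, cyclic loess, the second table, leaving out the dimmest 25% or 50% of loci, trend and robust eBayes, array weights, the replicate block, the brightest model, shoot markers as a covariate, an adjusted p of 0.01, a change of at least 1, and leaving out each array. Families by array text, and counts without MYB75, were added after seeing the data. Figures were drawn with matplotlib.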

Additional observations from a re-analysis of the deposited data

How the results depend on the processing

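Of the 34 calls, 34 remained after quantile normalization again, cyclic loess or array weights, and 33 after median centring, trend and robust eBayes or the brightest model per locus. Scaling moved the median of all loci by under 0.1. The second deposited table gave 3 increases and 4 decreases (Aux/IAA 0 and 0, SAUR 1 and 4, GH3 and other members 2 and 0). It kept 4 calls and turned the sign of 11, at -0.16 for IAA5, -0.13 for ARF19, 0.22 for SAUR58, -0.58 for SAUR52, 0.18 for SAUR33, -0.95 for SAUR35, 0.13 for IAA14, 0.47 for SAUR9, 0.13 for SAUR69, -0.24 for SAUR70 and 0.56 for SAUR43. Of these, SAUR35 passed there as lower (limma adjusted p = 0.0126). The cause was not tested.

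The replicate block gave 6 increases and 7 decreases (0 lower Aux/IAA, SAUR 3 and 6, GH3 and other members 1 and 1), and 12 of the 34 calls remained. The sample titles share a replicate number, and whether equal numbers mark pairs was not settled. Deviations of same-numbered arrays from their group means correlated at -0.20, 0.09 and -0.17, and not every array correlated best with its own number. With 3 arrays per line such deviations are constrained within each group, so these correlations cannot exclude pairing. An adjusted p of 0.01 gave 5 and 9 (Aux/IAA 1 and 1, SAUR 2 and 6, GH3 and other members 2 and 2). A change of at least 1 gave 5 and 8 (0 lower Aux/IAA, SAUR 2 and 7, GH3 and other members 1 and 1). Without the dimmest 50% of loci, 5 Aux/IAA genes were higher and SAUR gave 2 and 9, over fewer genes tested. Trend and robust eBayes gave 6 and 6 for Aux/IAA. The shoot covariate left 2 lower GH3 and other members. Families by array text gave 5 higher Aux/IAA, SAUR 1 and 2, and 17 lower GH3 and other members.

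Leaving out 1 array gave 7 to 11 increases and 10 to 17 decreases over all members, 2 to 4 and 1 to 2 for Aux/IAA, 2 to 5 and 6 to 13 for SAUR, and 3 to 4 and 2 to 3 for GH3 and other members. Signal near background limits the 42 members with a mean under 8, of which 3 passed.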
